A study of Mus musculus with 48 samples.

Results

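The genes described here are 10 genes of macroautophagy, followed through 48 h in mouse liver: Ulk1, Becn1, Atg5, Atg7, Map1lc3a, Map1lc3b, Gabarapl1, Sqstm1, Bnip3 and Tfeb. They were taken by the gene symbol of the array's platform annotation. Of the 18194 genes that the annotation gives as the only symbol of at least 1 probe set, these are 10, and of the 45101 probe sets of the array, 26 belong to them. Wildtype male C57BL/6J mice, 6 weeks old, were held in 12 h of light and 12 h of darkness and then kept in constant darkness. Sampling ran hourly from circadian time (CT) 18 to CT65, with subjective dusk at CT12 and CT36 and dawn at CT24 and CT48. For each hour, livers of 3 to 5 mice were pooled and read on 1 Affymetrix mouse array. There was 1 pool per hour and no replicate within an hour, so the error of every estimate below is the scatter of the pools around a fitted curve. The liver holds several cell types, and in such bulk samples fewer cells of a type cannot be told apart from less RNA per cell.

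In macroautophagy a cell wraps part of its own cytoplasm in a double membrane, the autophagosome, and delivers it to the lysosome for digestion. The ULK1 kinase and the beclin 1 lipid kinase complex start the membrane, a conjugation cascade around ATG7 and ATG5 fixes small ubiquitin-like proteins of the LC3 and GABARAP families to it, and receptors such as SQSTM1 (p62) and BNIP3 tie cargo to those proteins. In liver the process supplies amino acids and lipids during fasting, and TFEB is a transcription factor of lysosomal and autophagy genes. The results are given in that order: initiation, conjugation, cargo and transcriptional control.

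Promoters are shown for 4 of the genes, because they hold the only matches of the motifs searched (Atg5, Atg7 and Bnip3) or none of them beside a deep rhythm (Gabarapl1). Ulk1, with the deepest rhythm, had no match either and is not printed. Each is the 250 bases before a transcript start that RefSeq annotates, on build GRCm38.p6, written 5′ to 3′ in gene orientation, and the capitals mark the E-box CACGTG, the element to which the clock factors CLOCK and BMAL1 bind.
Atg5 (chr10:44268089-44268338, plus strand): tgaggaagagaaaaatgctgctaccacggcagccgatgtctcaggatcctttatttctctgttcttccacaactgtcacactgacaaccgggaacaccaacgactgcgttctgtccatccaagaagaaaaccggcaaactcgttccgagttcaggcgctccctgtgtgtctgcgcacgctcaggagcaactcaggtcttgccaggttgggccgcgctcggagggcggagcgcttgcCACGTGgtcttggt
Atg7 (chr6:114670846-114671095, plus strand): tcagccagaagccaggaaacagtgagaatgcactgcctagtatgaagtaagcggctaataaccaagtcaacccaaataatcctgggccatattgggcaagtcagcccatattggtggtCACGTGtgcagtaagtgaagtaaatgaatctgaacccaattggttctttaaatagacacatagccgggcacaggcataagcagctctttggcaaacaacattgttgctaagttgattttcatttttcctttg
Gabarapl1 (chr6:129532942-129533191, plus strand): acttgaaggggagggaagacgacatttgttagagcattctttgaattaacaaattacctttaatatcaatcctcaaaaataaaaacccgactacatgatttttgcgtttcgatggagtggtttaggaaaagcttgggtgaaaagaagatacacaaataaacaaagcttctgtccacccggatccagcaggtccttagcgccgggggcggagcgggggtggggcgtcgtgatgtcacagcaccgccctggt
Bnip3 (chr7:138909507-138909756, minus strand): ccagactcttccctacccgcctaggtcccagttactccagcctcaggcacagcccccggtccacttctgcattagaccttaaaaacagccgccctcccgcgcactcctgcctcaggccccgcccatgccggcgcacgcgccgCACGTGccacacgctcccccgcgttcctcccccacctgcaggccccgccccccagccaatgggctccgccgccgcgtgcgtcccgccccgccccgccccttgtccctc
The E-box lay 14 bases before the start in Atg5, 132 bases before it in Atg7 and 108 bases before it in Bnip3. The Atg7 start lies within the span that RefSeq annotates for the gene, chr6:114643127-114860604. The Atg5 window also runs into the annotated span of its gene, chr10:44268322-44364299, and its E-box lies inside that span. Of 32851 promoters of this length, 6.02% held an E-box on either strand. The hypoxia response core ACGTG, which shares its letters with the E-box, matched in the same 3 promoters and in 16.6% of all. The core of the CLEAR element, TCACGTGA, through which TFEB acts, was in no promoter of the 8 genes with an entry and in 0.785% of all promoters. The same 8 genes held no D-box (TTANGTAA, 2.06% of all), ROR element (TAGGTCA, 2.23%), FOXO site (GTAAACA, 3.17%) or C/EBP palindrome (TTGCGCAA, 0.164%). GC content was 43.2% in the Atg7 window, 46.8% in Gabarapl1, 56.4% in Atg5 and 72.4% in Bnip3, beside a median of 52.4% over all promoters. Of the genes with an E-box in the window, Atg7 and Bnip3 were called with a 24 h rhythm below, with all pools, and Atg5 was not. Of those with an entry and no E-box, Ulk1, Map1lc3b, Gabarapl1 and Sqstm1 were called and Tfeb was not. The relation of the motif to the rhythm was not tested.

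Linear intensities as deposited were taken to log2. Of a gene's probe sets, the one with the highest mean log2 intensity stands for the gene, and the others are given beside it. Of the 10 genes, 10 lay above the median brightness of the array by that probe set, as did 22 of the 26 probe sets. Array medians ran from 95.2 to 110.9. The last 6 pools, CT60 to CT65, stood apart: the 75th percentile of intensity was 797.1 to 944.8 in these pools and 891.3 to 1099.4 in the other pools, and the median correlation of a pool with the rest was 0.984 to 0.990 at CT60 to CT65 and 0.989 to 0.995 in the other pools. Markers of other cell types were measured beside them. The 6 endothelial markers had a median log2 difference of -0.52 between CT60 to CT65 and CT36 to CT41, the same hours one day earlier, and the 5 stellate cell markers of -0.21, while the 5 hepatocyte markers differed by 0.03. The summed intensity of the endothelial list was 26639.6 to 29554.6 at CT60 to CT65 and 19786.3 to 31551.8 in the other pools, and that of the stellate list was 11271.7 to 23181.7 at CT60 to CT65 and 15477.8 to 39069.7 in the other pools. The 6 Kupffer cell markers had a median difference of 0.10, and of the other 5 lists (bile duct, erythroid, lymphocyte, neutrophil and pancreatic acinar) none had a median below -0.03. The part of these pools in each result was not tested as a cause, and results are therefore given with and without them where they differ.

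A gene was called with a 24 h rhythm when Fisher's G-test and a cosine fit built after COSOPT both gave q under 0.05 (Storey) and the cosine period lay over 20 and under 30 h. By this rule 7 of the 10 genes were called: Ulk1, Becn1, Atg7, Map1lc3b, Gabarapl1, Sqstm1 and Bnip3. Among all 18194 genes of the array 14.2% were called, and among the 11101 genes that were, like all 10 here, above the median brightness, 22.4%. By probe set the count was 11 of 26, against 9.98% of all 45101, dim ones included. Without CT60 to CT65, a comparison added after the data were seen, 4 genes were called (Ulk1, Map1lc3b, Gabarapl1 and Bnip3). By probe set this was 8 of 26, and over the whole array 9.81% of probe sets were called, about the share with all pools. With 42 pools the G-test has no frequency at exactly 24 h.

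Amplitudes and peak times were estimated with limma, from cosine and sine terms of 24, 12 and 8 h beside a straight trend over time, and the p-values were Benjamini-Hochberg adjusted over all probe sets. By the 24 h pair of this model 8 of the 10 genes passed an adjusted p of 0.05, the 7 above and Map1lc3a. On the array 52.7% of genes passed it. Shares of all genes given for the limma tests, here and below, include dim genes and are not matched for brightness. The ratio given below is the fitted peak over the fitted trough of the 24 h pair. Among the 7 called genes its median was 1.54, and among all 2583 genes called on the array it was 1.48, with 10th and 90th percentiles of 1.20 and 2.31.

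**Figure D1:**
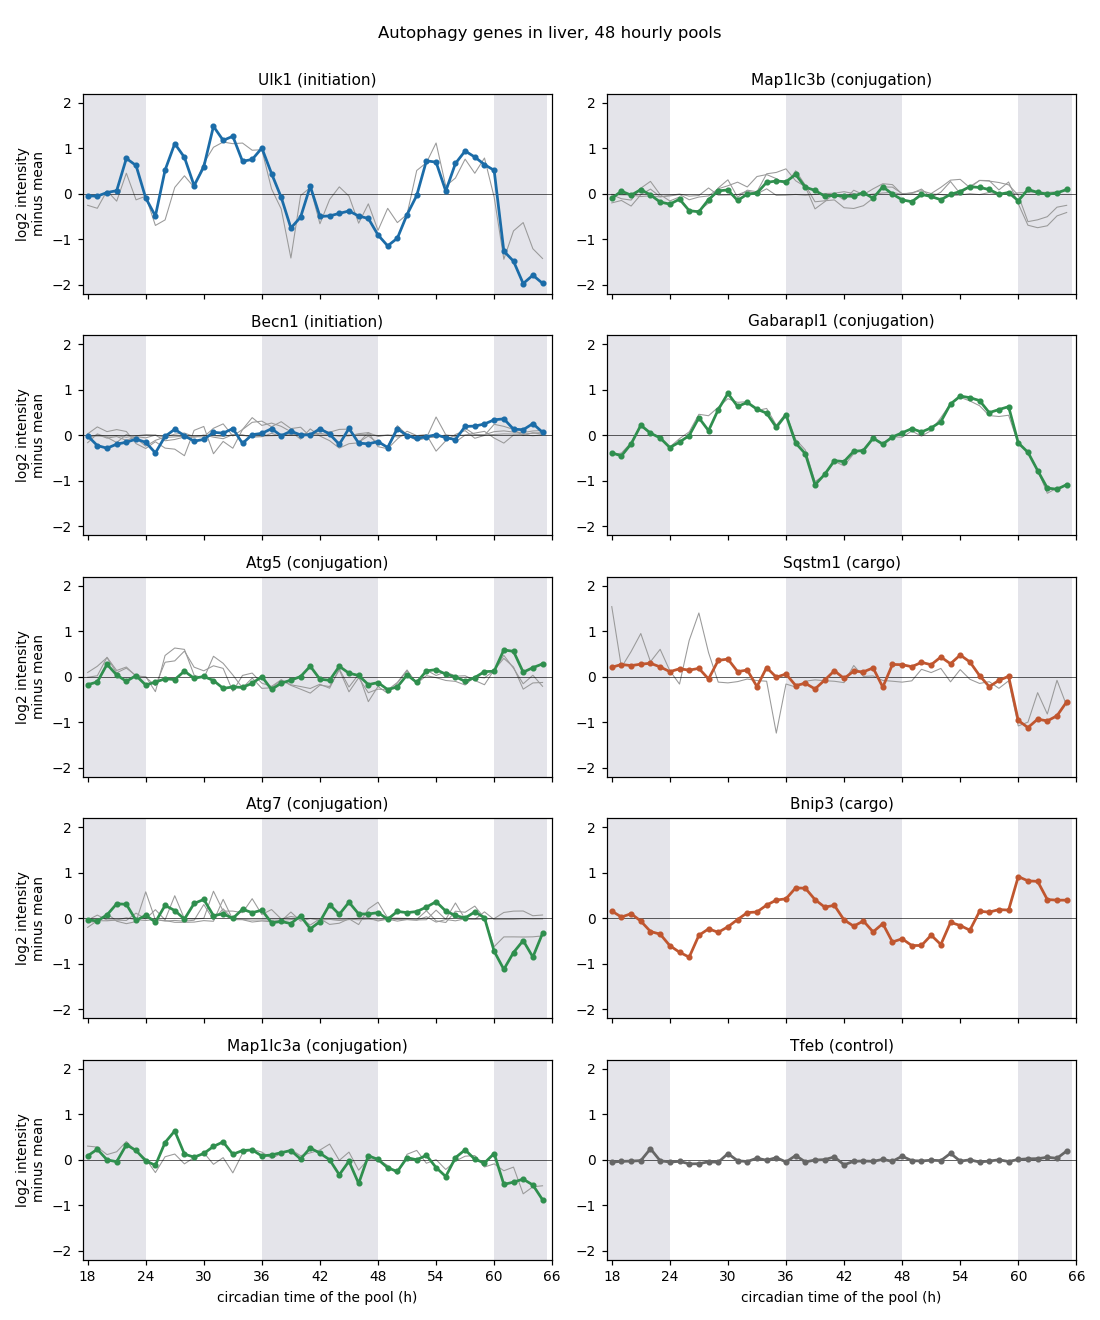
Log2 intensity minus its mean over the 48 pools (y axis) against the circadian time of the pool in hours (x axis), 1 panel per gene. The thick line with points is the brightest probe set, thin grey lines are the gene's other probe sets and grey bands are subjective night. Ulk1, Gabarapl1 and Bnip3 swing through both cycles, with fitted 24 h ratios of 3.12, 2.50 and 2.15, and the thick lines of Sqstm1 and Atg7 lie lower at CT60 to CT65 than at any earlier hour.

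Ulk1 encodes the kinase that starts autophagosome formation, and of the 10 genes it had the deepest 24 h rhythm. The probe set 1448370_at spanned 11-fold, between 783.3 at CT63 and 8616.5 at CT31. In blocks of 6 pools the lowest, median and highest intensity were 4647.6, 6077.2 and 8616.5 at CT30 to CT35, 2114.5, 2195.45 and 2369.3 at CT42 to CT47, 3208.4, 4939.7 and 5915.6 at CT54 to CT59, and 783.3, 995.75 and 4401.4 at CT60 to CT65. The blocks of late subjective day thus lay above the block of late subjective night between them with no overlap. The earlier block of late subjective night, CT18 to CT23, had 2971, 3183.8 and 5280.5 and overlapped both. The last block, apart from its first pool, lay below every other pool of the series. The 24 h amplitude was 0.82 ± 0.09 on the log2 scale (SE, 48 pools), a ratio of 3.12, with the peak at CT7.90 ± 0.42 h (limma adjusted p = 4.1e-09). Without CT60 to CT65 the peak was at CT8.47 ± 0.47 h. The ratio of 3.12 stood at the 95.4th percentile of the called genes of the array. The second probe set, 1416504_at, gave a ratio of 2.46 and a peak at CT7.85 ± 0.51 h, was called by both tests as well, and correlated with the first over the 48 pools at r = 0.85.

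A 12 h component was also fitted in Ulk1, with an amplitude of 0.41 ± 0.09 and peaks at 8.92 and 20.9 h (limma adjusted p = 0.0064). Of the 10 genes 2 passed this test, Ulk1 and Gabarapl1, against 7.11% of all genes. With CT60 to CT65 left out the adjusted p of 1448370_at was 0.10, and that of 1416504_at was 0.0103 against 0.0018 with all pools. Ulk1 intensity also fell over the 48 h, by 0.78 ± 0.12 log2 units per 24 h (adjusted p = 8.4e-06), and by 0.61 without CT60 to CT65 (adjusted p = 0.0019). The second cycle averaged 0.57 of the first, a log2 difference of -0.81 ± 0.12 (SE, limma adjusted p = 5.7e-06).

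Becn1 encodes beclin 1, the scaffold of the lipid kinase complex that nucleates the autophagosome membrane. Its rhythm was shallow. The probe set 1455880_s_at ran between 8686.6 at CT25 and 14597.8 at CT61, with medians of 10779.9 at CT24 to CT29, 11571.6 at CT36 to CT41, 10982.2 at CT48 to CT53 and 13024.6 at CT60 to CT65. The medians of early subjective night were higher than those of early subjective day in both cycles, and the ranges overlapped. Its 24 h ratio was 1.17 with the peak at CT12.0 ± 0.83 h (limma adjusted p = 0.0040), and the ratio stood at the 6.78th percentile of called genes. Leaving out CT60 to CT65 gave a limma adjusted p of 0.026 and no call by both rhythm tests. The suffix _s_at marks a probe set whose probes also match other transcripts. Of the other 4 probe sets of Becn1, 1435219_x_at was called by both tests, with a ratio of 1.25 and a peak at CT11.5 ± 0.56 h, and the remaining 3 were not. Their correlations with 1455880_s_at were between 0.03 and 0.43, and 1430358_at, the dimmest, lay at 38.6 to 41.6, at the 0.949th percentile of brightness.

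The conjugation genes had no common time of day. Gabarapl1, a ubiquitin-like protein of the GABARAP family, had the largest amplitude of the 5, and Atg5 had no call. The probe set 1416418_at of Gabarapl1 gave 53811.9, 72577.9 and 90365.3 (lowest, median, highest) at CT30 to CT35, 22386, 34169.8 and 65197 at CT36 to CT41, 67363.4, 77370.6 and 86712.3 at CT54 to CT59, and 20940, 25169.8 and 42470.8 at CT60 to CT65. Within a few hours of subjective dusk in both cycles the level dropped to less than the lowest pool of the preceding 6 h, reaching its minima at CT39 and CT64. The amplitude was 0.66 ± 0.04, a ratio of 2.50, with the peak at CT5.90 ± 0.23 h (limma adjusted p = 1.6e-17), and at CT6.10 ± 0.25 h without CT60 to CT65. The second probe set, 1416419_s_at, gave a ratio of 2.54 and a peak at CT5.95 ± 0.19 h, and the 2 correlated at r = 0.99.

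The Gabarapl1 curve was not a plain cosine. The 12 h component had an amplitude of 0.33 ± 0.04 with peaks at 8.87 and 20.9 h (limma adjusted p = 3.9e-07). This component passed without CT60 to CT65 (adjusted p = 2.4e-05) and with any single pool left out (highest adjusted p = 1.6e-06). The 8 h component passed in 0 of 10 genes by their brightest probe set, against 2.12% of all genes, and 3 of the 10 had an unadjusted p under 0.05. By the second Gabarapl1 probe set the adjusted p of the 8 h component was 0.022.

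Atg7 encodes the E1-like enzyme that activates both conjugation systems. The probe set 1428612_at had medians of 2425.45 at CT18 to CT23, 2595.15 at CT24 to CT29, 2255.15 at CT36 to CT41, 2627.55 at CT48 to CT53 and 1432.2 at CT60 to CT65. The highest pool of the last block, 1901, lay below the lowest of the earlier pools, 2035.3 at CT41. Its 24 h ratio was 1.36 with the peak at CT3.19 ± 0.83 h (limma adjusted p = 0.0011), and without CT60 to CT65 the ratio was 1.16 and the adjusted p 0.017, with the peak at CT3.51 ± 0.96 h. By both rhythm tests the gene was called with all pools and not without the last 6. A second probe set, 1428610_at, peaked later, at CT5.91 ± 0.97 h, and was not called by both tests (G-test q = 0.11). The other 2 lay between 86.3 and 343 and had limma adjusted p-values of 0.088 and 0.83.

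Atg5, which with ATG12 forms the E3-like complex of the same cascade, had no 24 h call in any of its 3 probe sets. The brightest, 1415684_at, ran between 8655.5 at CT49 and 15840.2 at CT61, with block medians of 10261.9 at CT18 to CT23, 9265.4 at CT30 to CT35, 9637.15 at CT48 to CT53 and 12444.7 at CT60 to CT65. The last block was the highest and overlapped the first. Its 24 h ratio was 1.11 (limma adjusted p = 0.11), and the adjusted p-values of 1418236_s_at and 1418235_at were 0.080 and 0.34. When CT60 to CT65 were left out those 2 had adjusted p-values of 0.0055 and 0.027 with peaks at CT4.85 ± 0.89 and CT5.35 ± 1.1 h, while 1415684_at had 0.39. The 3 probe sets did not run together: 1415684_at correlated with the other two at 0.29 and 0.39, and these with each other at 0.86.

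Map1lc3b encodes LC3B, the protein on the autophagosome membrane that is used as its marker. It was bright, between 53473.5 at CT27 and 94524.8 at CT37 by 1415930_a_at, with medians of 62331.5 at CT24 to CT29, 76023.4 at CT36 to CT41, 65940.9 at CT48 to CT53 and 71607.4 at CT60 to CT65. As in Becn1, the medians of early night exceeded those of early day. The 24 h ratio was 1.18 with the peak at CT12.5 ± 0.77 h (limma adjusted p = 0.0016). The probe set 1415928_a_at was also called by both tests, but with a ratio of 1.36 and a peak at CT7.33 ± 0.65 h, and 1415929_at peaked at CT6.32 ± 1.3 h without a call. When the last 6 pools were left out, the peaks were at CT12.6 ± 0.61 h for 1415930_a_at, CT8.75 ± 0.45 h for 1415928_a_at and CT10.0 ± 1.2 h for 1415929_at. In all pools 1415928_a_at and 1415929_at correlated at 0.81 with each other and at 0.36 and 0.44 with 1415930_a_at.

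Map1lc3a, encoding LC3A, was the gene that passed by limma and was not called by both rhythm tests (G-test q = 0.095, cosine q = 0.021). Its probe set 1447883_x_at, whose suffix marks probes shared with other sequences, had medians of 18020.5 at CT18 to CT23, 18837.5 at CT30 to CT35, 16109.7 at CT42 to CT47, 15971.4 at CT54 to CT59 and 11385 at CT60 to CT65. These medians show a decline more than a daily swing. The 24 h ratio was 1.24 (limma adjusted p = 0.017) and the adjusted p was 0.10 without CT60 to CT65. The linear trend was -0.34 ± 0.06 log2 units per 24 h (adjusted p = 1.5e-05), and -0.24 without those pools (adjusted p = 0.0027). The second probe set, 1451290_at, had a 24 h ratio of 1.02 (adjusted p = 0.94) and followed the first at r = 0.71.

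Both cargo genes were called, and their peaks fell on opposite sides of the day. Sqstm1 encodes p62, which carries ubiquitinated proteins to LC3. By 1450957_a_at its lowest, median and highest intensity were 49881.5, 51593 and 53032.1 at CT18 to CT23, 35860.2, 40020.9 and 47308.6 at CT36 to CT41, 50308.7, 52264 and 58327 at CT48 to CT53, and 19879.5, 22381.5 and 29433.1 at CT60 to CT65. The pools of CT36 to CT41 lay below those of CT18 to CT23, and those of CT60 to CT65 below every other pool, with no overlap. The ratio was 1.54 with the peak at CT2.54 ± 0.63 h (limma adjusted p = 3.1e-05). Without CT60 to CT65 the ratio was 1.28 and the peak at CT1.86 ± 0.73 h (adjusted p = 0.0010), and the gene was not called by both rhythm tests. The second probe set, 1444021_at, was dim, with a median of 189, and was not called (G-test q = 0.059).

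Bnip3 encodes a receptor of the outer mitochondrial membrane that directs mitochondria to autophagosomes and is known as a target of the hypoxia factor HIF-1. It had 1 probe set, 1422470_at. Its lowest, median and highest intensity were 42061, 54385 and 64734.1 at CT24 to CT29, 90186.1, 101750 and 120897 at CT36 to CT41, 50210.5, 53313.4 and 71488.3 at CT48 to CT53, and 100293, 117427 and 143611 at CT60 to CT65. The 2 night blocks lay above the 2 morning blocks without overlap, and the level stepped up between CT59, at 86213.6, and CT60, at 143611. The amplitude was 0.55 ± 0.03, a ratio of 2.15, with the peak at CT13.4 ± 0.20 h (limma adjusted p = 1.1e-17), and without CT60 to CT65 the peak was at CT13.3 ± 0.20 h (adjusted p = 1.6e-15). No 12 h component was called (adjusted p = 1). Of the 10 genes, Bnip3 had the smallest standard error of the peak time.

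Tfeb, the transcription factor, was called by neither rhythm test nor by limma. Its only probe set, 1422566_at, ran between 453.7 at CT42 and 579.6 at CT22, and the block medians stayed between 472.6 at CT24 to CT29 and 499.9 at CT60 to CT65. The 24 h ratio was 1.02, with an amplitude of 0.01 ± 0.01 (limma adjusted p = 0.78). After quantile normalization of the arrays the amplitude was 0.06 and the adjusted p 0.044. These are the levels of the transcript alone, and the location of the TFEB protein was not measured.

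**Figure D2:**
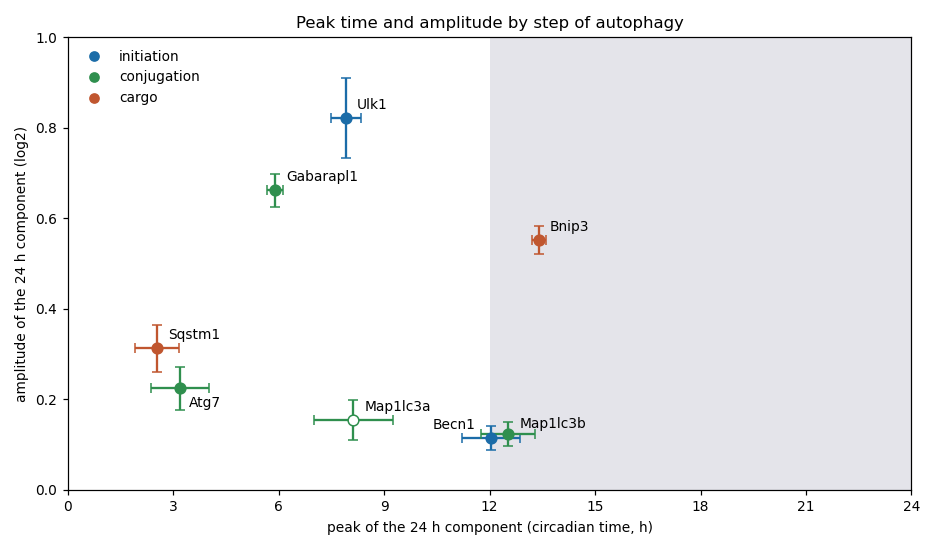
Amplitude of the 24 h component in log2 units (y axis) against its peak in circadian time in hours (x axis) for the 8 genes with a limma adjusted p under 0.05, coloured by step, with standard errors from the 48 pools. Filled points were called by both rhythm tests and the open point, Map1lc3a, was not; the grey band is subjective night. Ulk1, Gabarapl1 and Bnip3 stand above an amplitude of 0.5, and the other 5 lie under 0.35.

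Along the steps of the pathway the peaks did not follow the order of initiation, conjugation and cargo. In time they came as Sqstm1 at CT2.54, Atg7 at CT3.19, Gabarapl1 at CT5.90, Ulk1 at CT7.90, Becn1 at CT12.0, Map1lc3b at CT12.5 and Bnip3 at CT13.4. Members share pools, so each difference of peak times was given a 95% interval that includes the covariance of the residuals. Of 21 pairs, 17 intervals lay clear of 0, by the brightest probe set of each gene and with all pools. The order depends on that choice. The probe set 1415928_a_at of Map1lc3b, also called, peaked at CT7.33, and 1428610_at of Atg7, not called, at CT5.91. Intervals were not computed for these, and only the lag of Bnip3 behind Gabarapl1 was computed again without CT60 to CT65. Among neighbours in the order, Gabarapl1 followed Atg7 by 2.71 h (interval 1.11 to 4.31), Ulk1 followed Gabarapl1 by 2.0 h (1.13 to 2.88) and Becn1 followed Ulk1 by 4.13 h (2.35 to 5.92). The 4 intervals that held 0 were those of Atg7 and Sqstm1 (0.65 h, -0.47 to 1.76), Map1lc3b and Becn1 (0.48 h, -2.35 to 3.31), Bnip3 and Map1lc3b (0.89 h, -0.76 to 2.53) and Bnip3 and Becn1 (1.37 h, -0.36 to 3.09). These pairs were not told apart at this precision.

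Bnip3 peaked 10.9 h after Sqstm1 (interval 9.69 to 12.0) and 7.51 h after Gabarapl1 (6.91 to 8.10). When CT60 to CT65 were left out, the lag of Bnip3 behind Gabarapl1 was 7.19 h. Over the 48 pools Bnip3 and Sqstm1 ran against each other (r = -0.72), Sqstm1 and Atg7 ran together (r = 0.89), and Ulk1 ran with Gabarapl1 (r = 0.76) and with Map1lc3a (r = 0.75). These correlations share the same 48 arrays and, for Sqstm1, Atg7, Ulk1 and Map1lc3a, the low values of CT60 to CT65. Among the called genes of the array, peaks within 1 h were found in 15.8% around Gabarapl1, in 12.0% around Ulk1 and in 5.57% around Bnip3.

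The 5 genes most like each called member, by Pearson correlation of log2 intensity over the 48 pools, were taken from the brightest probe set of every gene. For Ulk1 they were Brap (r = 0.95), Rxra (0.92), Lrp6 (0.92), Npc1 (0.92) and Garem1 (0.92), all with peaks between CT6.97 and CT7.98. Rxra is the partner of many nuclear receptors and Npc1 exports cholesterol from lysosomes. For Gabarapl1 they were Fbxo21 (0.95), Aqp9 (0.93), Abcg8 (0.91), Cirbp (0.91) and Slc8b1 (0.90). Aqp9 is the glycerol channel of hepatocytes and Cirbp a cold-induced RNA-binding protein. For Bnip3 they were St3gal5 (0.95), Gys2 (0.92), Gstt2 (0.92), Nampt (0.91) and Akr1c19 (0.91), with peaks between CT12.9 and CT14.5. Gys2 is the liver glycogen synthase and Nampt the NAD salvage enzyme.

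For Sqstm1 the list was Cyp8b1 (0.94), Lgals9 (0.93), Agtr1a (0.93), Tubb5 (0.92) and Cldn2 (0.92), and for Atg7 it was Bscl2 (0.89), Serpinf1 (0.89), Sqstm1 (0.89), Cyp8b1 (0.89) and Itih1 (0.88). Cyp8b1, the sterol 12-alpha-hydroxylase of bile acid synthesis, was thus on both lists, and Sqstm1 was itself on that of Atg7. The correlations include CT60 to CT65, where Sqstm1 and Atg7 were lowest, and were not computed without those pools. The shallow genes had weaker likeness. The highest values were 0.72 for Becn1, with Pa2g4, and 0.78 for Map1lc3b, with Lmbrd1.

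The 24 h component was compared between the second cycle (CT42 to CT65) and the first (CT18 to CT41). By the interaction test of limma it differed in 4 of the 10 genes (Atg5, Atg7, Map1lc3b and Sqstm1). Of all genes, dim ones included, 6.03% passed. The model of that test held a step between the cycles in place of the straight trend, so drift within a cycle was not taken out. In Sqstm1 the 24 h ratio was 2.26 in the second cycle and 1.23 in the first (adjusted p = 0.00082), and in Atg7 it was 1.76 in the second cycle and 1.17 in the first (adjusted p = 0.035). In Map1lc3b, by 1415930_a_at, it was 1.07 in the second cycle and 1.33 in the first (adjusted p = 0.0495). Atg5, by 1415684_at, peaked at CT13.8 ± 0.76 h in the second cycle and at CT21.5 ± 1.8 h in the first (adjusted p = 0.015). Its other probe sets differed from this: 1418236_s_at peaked at CT9.90 ± 1.6 h in the second cycle and at CT2.73 ± 0.89 h in the first (adjusted p = 0.041), and 1418235_at at CT11.8 ± 1.3 h in the second and CT2.17 ± 0.97 h in the first (adjusted p = 0.010). Without CT60 to CT65 and the matching hours CT36 to CT41, 0 of the 10 genes passed, 4 had an unadjusted p under 0.05, and on the whole array 0.00887% of probe sets passed.

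For the 3 deep rhythms the test of a difference between cycles did not pass. The ratio of Bnip3 was 2.21 in the second cycle and 2.12 in the first, with peaks at CT13.3 ± 0.27 h in the second and CT13.5 ± 0.29 h in the first (interaction adjusted p = 0.87 by limma). For Gabarapl1 the ratio was 2.84 in the second cycle and 2.21 in the first, with peaks at CT5.56 ± 0.24 h in the second and CT6.07 ± 0.32 h in the first (adjusted p = 0.16). For Ulk1 the ratio was 3.27 in the second cycle and 2.15 in the first, with peaks at CT6.79 ± 0.52 h in the second and CT6.81 ± 0.81 h in the first (adjusted p = 0.46). Each cycle was also fitted alone with a straight trend, and differences between those peaks were not tested. Ulk1 then peaked at CT7.76 ± 0.67 h in the second cycle and CT5.59 ± 1.9 h in the first. Gabarapl1 peaked at CT6.24 ± 0.43 h in the second and CT5.80 ± 0.82 h in the first, and Bnip3 at CT13.6 ± 0.52 h and CT13.5 ± 0.30 h.

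**Figure D3:**
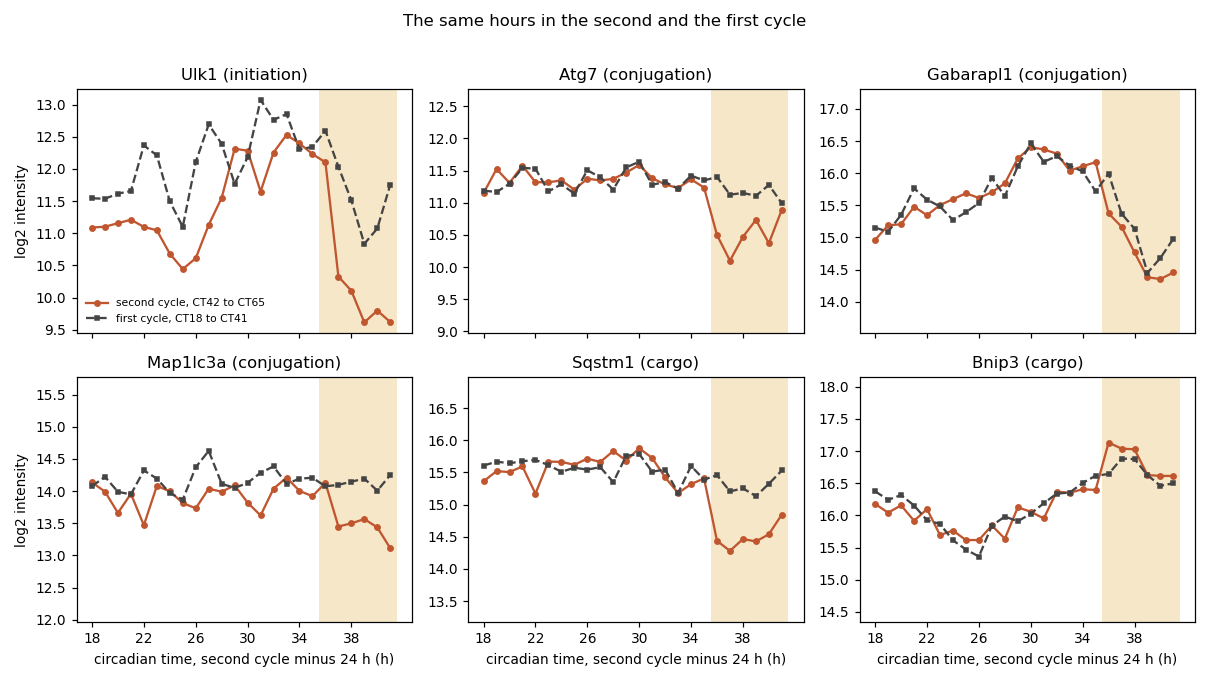
Log2 intensity (y axis) of 6 genes at matching hours of the second cycle (orange points and solid line, plotted 24 h earlier) and of the first cycle (grey squares and dashed line) against circadian time in hours (x axis), 1 pool per point. The shaded hours are CT60 to CT65 and CT36 to CT41. Ulk1, Atg7, Map1lc3a and Sqstm1 were lower at CT60 to CT65 than at CT36 to CT41 by mean log2 differences of -1.37, -0.67, -0.60 and -0.82, and Bnip3 was higher by 0.18.

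The same hours of the 2 days can be set side by side. Sqstm1 had 19879.5 to 29433.1 at CT60 to CT65 and 35860.2 to 47308.6 at CT36 to CT41, with no overlap and a mean log2 difference of -0.82. Atg7 had 1096.9 to 1901 at CT60 to CT65 and 2035.3 to 2704.4 at CT36 to CT41 (-0.67), again with no overlap. Ulk1 (-1.37), Map1lc3a (-0.60) and Gabarapl1 (-0.35) were also lower at CT60 to CT65 on average, with overlapping ranges. Atg5 was higher by 0.35, Bnip3 by 0.18 and Becn1 by 0.17, and Tfeb (0.05) and Map1lc3b (-0.12) differed less. The endothelial and stellate marker lists given above had medians of -0.52 and -0.21, of the same sign as Sqstm1, Atg7 and Ulk1. Of the endothelial markers 5 of 6 were lower and Clec4g was higher (0.31), and of the stellate markers 3 of 5 were lower while Lrat (0.52) and Des (0.07) were higher. Their part in these differences was not tested.

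By the linear trend 2 of the 10 genes were higher with time (Becn1 and Atg5), against 40.4% of all genes, and 4 were lower (Ulk1, Atg7, Map1lc3a and Sqstm1), against 18.1%. The slope of Becn1 was 0.10 ± 0.03 log2 units per 24 h and that of Atg5 0.15 ± 0.04, and those of Atg7 and Sqstm1 were -0.15 ± 0.06 and -0.21 ± 0.07. The median over all genes was 0.03. The rise of Atg5 was that of 1415684_at alone. Its other probe sets had slopes of -0.13 ± 0.06 (1418235_at, adjusted p = 0.040) and -0.11 ± 0.06 (1418236_s_at, adjusted p = 0.14), and of -0.25 (adjusted p = 0.0018) and -0.23 (adjusted p = 0.0047) without CT60 to CT65. By the brightest probe sets, only Ulk1 and Map1lc3a passed without CT60 to CT65, and the slopes of Sqstm1 and Atg7 were -0.02 and 0.01.

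The wider pathway was read from 5 lists of autophagy genes, 93 in all, of which 88 were found on the array and 88 lay above the median brightness. By both rhythm tests 34 of the 88 were called, 27 of them among the 78 genes other than the 10, to be set against 22.4% of all genes of that brightness. The median 24 h ratio was 1.28 over the lists and 1.09 over all genes, dim ones included, so these medians are not matched for brightness. All 34 also passed the 24 h test of limma without CT60 to CT65, a looser test that 52.7% of all genes passed with all pools. The lists were not recounted by both rhythm tests without those pools, where the 10 genes went from 7 calls to 4. In subjective day (CT0 to CT12) lay 23 of the 34 peaks, and in subjective night 11, with Becn1 at CT12.0 on the boundary. Of all 2485 called genes above the median brightness, 64.1% peaked in subjective day, so the split of the lists was near that of the array.

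Of the initiation and nucleation list 7 of 21 were called, beside the same 22.4%, and 5 of the 19 other than Ulk1 and Becn1. Beside Ulk1 and Becn1 they were Wipi2, which binds the phospholipid of the growing membrane (ratio 1.57, CT6.90), Atg14, the subunit that brings the beclin 1 complex to autophagy (1.94, CT7.95), Wdr45, a WIPI-family protein (1.51, CT8.95), Uvrag, the alternative partner of beclin 1 (1.36, CT10.5), and Atg101, a subunit of the ULK1 complex (1.67, CT23.8). Atg101 thus peaked at the end of subjective night, and the kinase it accompanies in late subjective day.

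Of the conjugation list 6 of 15 were called, beside the same 22.4%, and 3 of the 10 outside the 10 genes. The 3 outside the 10 genes were Atg4d, a protease that trims LC3 (1.25, CT10.4), Atg3, the E2-like enzyme of LC3 (1.21, CT15.9), and Gabarap, a paralogue of Gabarapl1 (1.18, CT17.7). Gabarap and Gabarapl1 therefore peaked in opposite parts of the day, by ratios of 1.18 and 2.50.

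Of the cargo receptors 8 of 12 found were called, beside the same 22.4%, and 6 of the 10 outside the 10 genes. Stbd1, a receptor for glycogen, had a ratio of 1.85 at CT10.2, Retreg1, a receptor for the endoplasmic reticulum, 2.03 at CT7.45, Nbr1 and Tax1bp1, which like p62 carry ubiquitinated cargo, 1.35 at CT6.97 and 1.22 at CT7.54, Ncoa4, the ferritin receptor, 1.35 at CT16.7, and Fundc1, a mitochondrial receptor like Bnip3, 1.66 at CT20.1. The 3 ubiquitin-binding receptors peaked in subjective day and the 2 mitochondrial receptors called, Bnip3 and Fundc1, in subjective night.

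Of the list of control and signaling genes 9 of 21 were called, beside 22.4% of all genes of this brightness. They were Cebpb (2.29, CT11.5), Ppara (2.03, CT9.31), Foxo3 (2.10, CT9.33), Nr1h4 (1.32, CT13.9) and Mitf (1.57, CT23.0) among transcription factors, and Mtor (1.92, CT6.97), Tsc1 (1.54, CT4.52), Sesn3 (1.48, CT3.15) and Ddit4 (2.37, CT18.2) in the mTOR pathway. The mTOR kinase restrains ULK1, and Tsc1, Sesn3 and Ddit4 restrain mTOR. Ppara, the fasting receptor of fatty acid oxidation, and Foxo3 are known activators of autophagy genes. Of fusion and lysosomal genes 4 of 19 were called, all in subjective day: Ctsl (1.18, CT3.50), Epg5 (1.88, CT4.93), Vps41 (1.37, CT6.77) and Mcoln1 (1.47, CT9.76). That count was near the 22.4% of all genes of this brightness. The median ratio was 1.17 in the lysosomal list and 1.5 in the cargo list, and differences between lists were not tested.

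**Figure D4:**
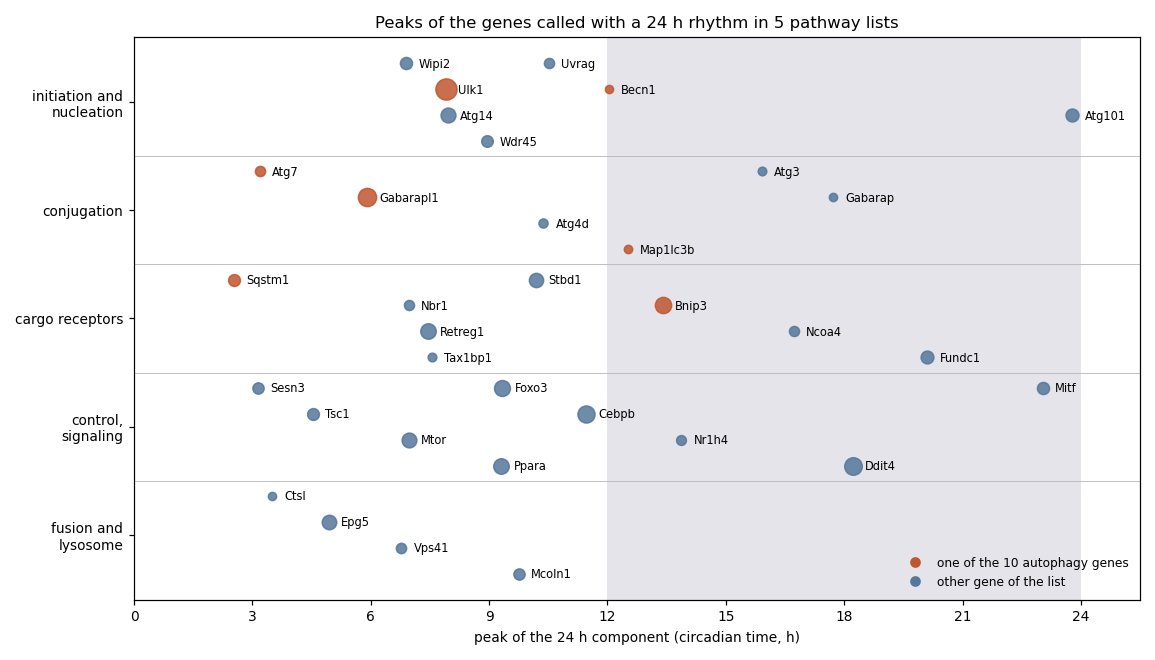
Peak of the 24 h component in circadian time in hours (x axis) for the 34 genes called by both rhythm tests, in 5 pathway lists (rows; height within a row only separates names). Point size grows with the 24 h ratio, orange marks the 10 autophagy genes and blue the other genes, and the grey band is subjective night. Of the 34 peaks 23 lie in subjective day, and all 4 of the fusion and lysosome row do.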

How the data were processed

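Liver RNA of 48 hourly pools was read on 1 array each. The authors deposited intensities that are not on a log scale, between 20.6 and 1218382.7. The study's methods name GCRMA for their extraction, and the labels name MAS5 without a version; which of them made the deposited table is not stated and was taken to be GCRMA. Probe sets were named by the platform annotation in GEO: 34958 of 45101 had 1 symbol, 932 several and 9211 none, and only those with 1 symbol were used for genes. Control probe sets and dim probe sets were kept.

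Values were transformed to log2 with no pseudocount. For the G-test, 23 Fourier frequencies were used and no trend was taken out. For the cosine fit a straight line was subtracted, periods from 4 to 30 h were tried every 0.1 h, and p came from 1000 scramblings, whose number sets the smallest q it can give. Storey q-values used lambda up to 0.95. limma 3.58.1 (R 4.3.3) gave moderated F-tests with Benjamini-Hochberg adjustment over all probe sets, and standard errors of amplitude and peak came from the delta method. Python 3.11.15 and numpy 2.4.6 were used. Both tests and the limma model were tested on simulated data with independent scatter, no trend and no shifted block of pools. That simulation therefore does not bear on the part of CT60 to CT65.

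All 10 genes are named with every probe set, with the 5 best correlated genes of each called one, and from each pathway list the called genes. The 10 genes, the lists and the tests were chosen with earlier results of these data known. All pools form one group, and p-values measure scatter around the fit within 1 series of pools. Precision is limited by the number of arrays. The alternatives were linear intensities, detrending before the G-test, other q thresholds and adjustment, a brightness filter, quantile normalization, each cycle alone, no trend term, other probe sets of a gene, and leaving out CT60 to CT65 or each pool in turn. Promoters came from RefSeq (GRCm38.p6) by symbol; 8 of the 10 genes had an entry.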

Additional observations from a re-analysis of the deposited data

Results flagged for a closer look

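The 24 h component differed between the second and the first cycle, by the interaction test of limma, in 8 of the 26 probe sets of the autophagy genes and in 4.63% of all probe sets of the array. The adjusted p-values were 0.000815 for Sqstm1 (1450957_a_at), 0.000817, 0.00448 and 0.0495 for Map1lc3b (1415929_at, 1415928_a_at and 1415930_a_at), 0.0101, 0.0151 and 0.0407 for Atg5 (1418235_at, 1415684_at and 1418236_s_at), and 0.0355 for Atg7 (1428612_at). All 3 probe sets of Atg5 and 3 of the 4 of Map1lc3b are among them. Of the Atg5 probe sets, 1418235_at peaked at CT11.8 ± 1.3 h in the second cycle and CT2.17 ± 0.97 h in the first, and 1415684_at at CT13.8 ± 0.76 h in the second and CT21.5 ± 1.8 h in the first. The peak of 1415929_at was at CT3.56 ± 0.57 h in the second cycle and at CT11.3 ± 1.0 h in the first, and that of 1415928_a_at at CT4.81 ± 0.54 h in the second and CT9.31 ± 0.65 h in the first. The pools of CT60 to CT65 belong to the second cycle, and without them and CT36 to CT41 0 of the 10 genes passed by limma, with 4 at an unadjusted p under 0.05.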

How the results depend on the processing

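The count of 7 genes called by both rhythm tests was 4 with the trend removed before the G-test (Ulk1, Gabarapl1, Sqstm1 and Bnip3), 3 at q under 0.01 (Gabarapl1, Sqstm1 and Bnip3) and 4 without CT60 to CT65, an alternative chosen after seeing the data. Of all probe sets, 15.4%, 6.41% and 9.81% were called in these settings, beside 9.98% as reported above. Of the 26 probe sets of the genes, 8, 6 and 8 were called, beside 11. The count was 7 on linear intensities, 6 with Benjamini-Hochberg, 8 among probe sets above the median, 5 after quantile normalization and 8 at q under 0.1, where 17.9% of all probe sets were called. Bnip3 and Gabarapl1 were called in each of the 3 settings first named. By limma 8 genes passed at 24 h with any single pool left out, and 4 in the first cycle alone (Ulk1, Atg5, Gabarapl1 and Bnip3), with fewer pools. No share of all genes was counted for either cycle alone. In the second cycle alone 8 passed, but not the same genes. Atg5 and Tfeb were among them (limma adjusted p = 0.047 and 0.043), and Becn1 and Map1lc3b were not (0.064 and 0.99). At 12 h the count was 1 without CT60 to CT65 (Gabarapl1). At 8 h it was 1 among probe sets above the median and ran from 0 to 1 over the 48 omissions of a pool. The trend count was 2 without CT60 to CT65. The lag of Bnip3 behind Gabarapl1 was 7.19 h without those pools and 7.41 to 7.61 h with single pools left out. Of the differences between cycles, 2 passed after quantile normalization (Atg5 and Sqstm1) and 0 without CT60 to CT65 and CT36 to CT41. The cause of these changes was not tested. Of 80 values of a single gene's 24 h test under alternatives, 67 stayed on their side of the threshold, 9 lost it, 4 gained it and 0 reversed.

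With 1 pool per hour, biological and array scatter cannot be told apart, and dim probe sets near the array floor limit what a missing call says.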
